A study of Homo sapiens with 12 samples.

Results

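The genes described here are the human sensors of viral RNA, RIGI, IFIH1, DHX58 and TLR3, the adaptor MAVS and the helicases DDX60 and DDX60L. They were taken by name from the deposited gene counts, in which RIGI is identified as ENSG00000107201.10 and was called DDX58 in older annotation. All 7 were found among the 60669 gene identifiers of the table, and all 7 were among the 16393 genes with enough counts to be tested.

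Polyadenylated RNA was sequenced from HT1080, a human fibrosarcoma line, that stably carried dCas9, a Cas9 without cutting activity, and 1 guide RNA. In LTR8B cells the guide was aimed at an LTR8B repeat, a remnant of an endogenous retrovirus, within the first intron of SP140, a gene for a nuclear body protein; in GFP control cells it was aimed at GFP. Cells of either guide received 10 U/mL of interferon beta (IFNB) over 4 h or no treatment, which gave 4 groups: LTR8B with IFNB (4 libraries), LTR8B untreated (4), GFP with IFNB (2) and GFP untreated (2). Both lines were kept under blasticidin to hold dCas9 and under puromycin to hold the guide, so all 12 libraries share the line, dCas9 and both drugs. The labels name 1 guide per target and do not say whether lines were clones or pools, or whether replicates were separate cultures, so p-values reflect nothing beyond the spread among these libraries.

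Libraries held 12404270 to 28801579 counts, and the smallest was LTR8B IFNB replicate 3. Levels are in CPM, counts per 1e+06 counts after scaling of library sizes by TMM (trimmed mean of M values). SP140 was at 0.515 to 1.84 CPM in the 8 LTR8B libraries, below the 29.8 to 32.0 CPM of the 4 GFP libraries. Of 10 mesenchymal markers, VIM averaged 3552 CPM in LTR8B IFNB cells and 3378 CPM in GFP untreated cells, and CD44, FN1, SPARC, COL5A1 and PDGFRB had group means of 4.64 CPM or more. The collagens COL1A1, COL1A2 and COL3A1 and the fibroblast marker THY1 had group means of 0 to 2.59 CPM. The 8 epithelial markers summed to 0.553 to 1.37 CPM per library, with KRT5 at 0 counts in all. The 10 leukocyte markers summed to 97.6 to 141.5 CPM, most of it CD68, a lysosomal protein of many cell types. CD68 averaged 121.6, 98.9, 119.5 and 99.2 CPM in LTR8B IFNB, LTR8B untreated, GFP IFNB and GFP untreated cells. CSF1R, the next highest of that list, averaged 5.25, 5.39, 7.50 and 8.27 CPM in the same order. PTPRC, which defines leukocytes, averaged 0 to 0.0328 CPM. CD68 rose with IFNB in LTR8B cells by 0.30 on the log2 scale (edgeR adjusted p = 0.0124), a call lost without LTR8B untreated replicate 1 or LTR8B IFNB replicate 3 (adjusted p of up to 0.0647).

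RIG-I (encoded by RIGI) and MDA5 (encoded by IFIH1) are cytosolic helicases that bind viral RNA, RIG-I preferring short RNA with a 5′ triphosphate and MDA5 long double-stranded RNA. Both carry caspase recruitment domains through which they engage MAVS on the mitochondrial surface, and MAVS in turn starts the signalling that switches on interferon genes. LGP2 (encoded by DHX58) lacks those domains and modulates the other sensors, whereas TLR3 reads double-stranded RNA inside endosomes and signals through TRIF instead of MAVS. DDX60 and its relative DDX60L are helicases linked to antiviral defence, and in many human cells the sensors are themselves interferon-stimulated genes.

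Treatment with IFNB raised 6 of the 7 genes in each line, and MAVS was the gene that did not pass the test. A gene was called changed at a Benjamini-Hochberg adjusted p under 0.05 in edgeR's quasi-likelihood test, adjusted over all 16393 genes. Against the 6 of 7 stand 4.01% of all tested genes called higher with IFNB in LTR8B cells and 3.06% in GFP cells. The median log2 fold change of the 7 was 4.00 in LTR8B cells and 4.04 in GFP cells, beside -0.01 over all tested genes in either line. In bulk RNA a higher level in each cell and more cells responding cannot be told apart.

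RIGI lies on chromosome 9 (32455705 to 32526324, minus strand; hg38, GENCODE release 29). With IFNB it stood at 645, 599, 649 and 637 CPM in the 4 LTR8B libraries, against 19.8, 18.7, 16.6 and 21.0 CPM in untreated LTR8B libraries. In GFP cells the values were 666 and 630 CPM with IFNB, against 16.7 and 18.0 CPM untreated. Every treated library was far above every untreated one, and the treated libraries of the 2 guides overlapped. The fold change was 33.3 in LTR8B cells (95% interval 29.9 to 37.1; log2 5.06, SE 0.07, edgeR adjusted p = 1.61e-18) and 37.3 in GFP cells (32.0 to 43.4; log2 5.22, SE 0.10, edgeR adjusted p = 3.37e-16). By fold, RIGI was number 37 of all tested genes in LTR8B cells and number 43 in GFP cells, the highest place of the 7 in both.

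IFIH1, on chromosome 2 (162267079 to 162318703, minus strand), was at 214, 193, 217 and 196 CPM in LTR8B cells with IFNB, against 9.64, 8.03, 9.24 and 7.97 CPM in untreated LTR8B cells. The GFP libraries had 229.9 and 228 CPM with IFNB, against 8.13 and 11.4 CPM untreated. Treated and untreated libraries were well apart, and the untreated GFP pair spanned the widest range among the untreated libraries. IFIH1 rose 23.3-fold in LTR8B cells (log2 4.54, SE 0.09, edgeR adjusted p = 1.86e-16) and 23.7-fold in GFP cells (log2 4.57, SE 0.13, edgeR adjusted p = 4.29e-14).

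DHX58, on chromosome 17 (42101404 to 42112733, minus strand), had the fewest counts of the 7. It had 128, 137, 105 and 125 counts in LTR8B cells with IFNB, against 5, 6, 4 and 5 counts in untreated LTR8B cells. In GFP cells it had 171 and 165 counts with IFNB, against 9 and 8 counts untreated. Scaled for library size the treated LTR8B libraries were at 6.53, 6.40, 8.54 and 6.63 CPM, so replicate 3, the smallest library, was the highest of them. DHX58 rose 30.5-fold in LTR8B cells (95% interval 22.4 to 41.6; log2 4.93, SE 0.21, edgeR adjusted p = 7.40e-12) and 22.6-fold in GFP cells (15.2 to 33.5; log2 4.50, SE 0.27, edgeR adjusted p = 1.50e-09). These intervals are the widest of the 6 responding genes.

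MAVS, on chromosome 20 (3846799 to 3876123, plus strand), had no called change. LTR8B cells had 73.5, 79.3, 75.0 and 77.7 CPM with IFNB, against 78.8, 88.1, 81.6 and 81.4 CPM untreated, and GFP cells had 73.9 and 79.1 CPM with IFNB, against 72.1 and 77.0 CPM untreated. Treated and untreated libraries overlapped in both lines. Between same-numbered libraries MAVS was lower with IFNB in every LTR8B pair and higher in both GFP pairs. The log2 difference between IFNB and untreated was -0.11 in LTR8B cells (95% interval -0.23 to 0.01, edgeR adjusted p = 0.444) and 0.04 in GFP cells (SE 0.08, edgeR adjusted p = 0.881). In LTR8B cells its unadjusted edgeR p was 0.0657. That p was under 0.05 with the replicate block or without LTR8B untreated replicate 1, where MAVS was still not called. The RNA of the adaptor that RIG-I and MDA5 share was therefore not called changed in cells where the RNA of both sensors had risen.

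TLR3, on chromosome 4 (186069152 to 186088069, plus strand), had the smallest increase of the 6. It was at 35.6, 37.8, 42.8 and 36.4 CPM in LTR8B cells with IFNB, against 4.10, 3.24, 4.79 and 5.30 CPM in untreated LTR8B cells. GFP cells had 34.1 and 33.4 CPM with IFNB, against 3.55 and 3.67 CPM untreated. Treated libraries were all above untreated ones. The increase was 8.68-fold in LTR8B cells (log2 3.12, SE 0.11, edgeR adjusted p = 5.49e-13) and 9.34-fold in GFP cells (log2 3.22, SE 0.16, edgeR adjusted p = 1.08e-10).

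DDX60 (168216293 to 168318807) and DDX60L (168356735 to 168537786) are neighbours on the minus strand of chromosome 4. DDX60 was at 100.3, 90.6, 103.1 and 83.2 CPM in LTR8B cells with IFNB, against 7.19, 5.05, 5.89 and 5.30 CPM untreated, and at 101.6 and 109.2 CPM in GFP cells with IFNB, against 6.58 and 6.88 CPM untreated. DDX60L was at 109, 97.8, 118 and 101 CPM in LTR8B cells with IFNB, against 7.93, 6.80, 7.07 and 7.77 CPM untreated, and at 97.5 and 122 CPM in GFP cells with IFNB, against 7.26 and 5.98 CPM untreated. Both genes were higher in every treated library than in every untreated one. DDX60 rose 16.0-fold in LTR8B cells and 15.7-fold in GFP cells (log2 4.00, SE 0.10, and 3.97, SE 0.14; edgeR adjusted p = 3.40e-15 and 7.51e-13). DDX60L rose 14.4-fold in LTR8B cells and 16.5-fold in GFP cells (log2 3.85, SE 0.10, and 4.04, SE 0.14; edgeR adjusted p = 3.40e-15 and 5.21e-13).

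**Figure D1:**
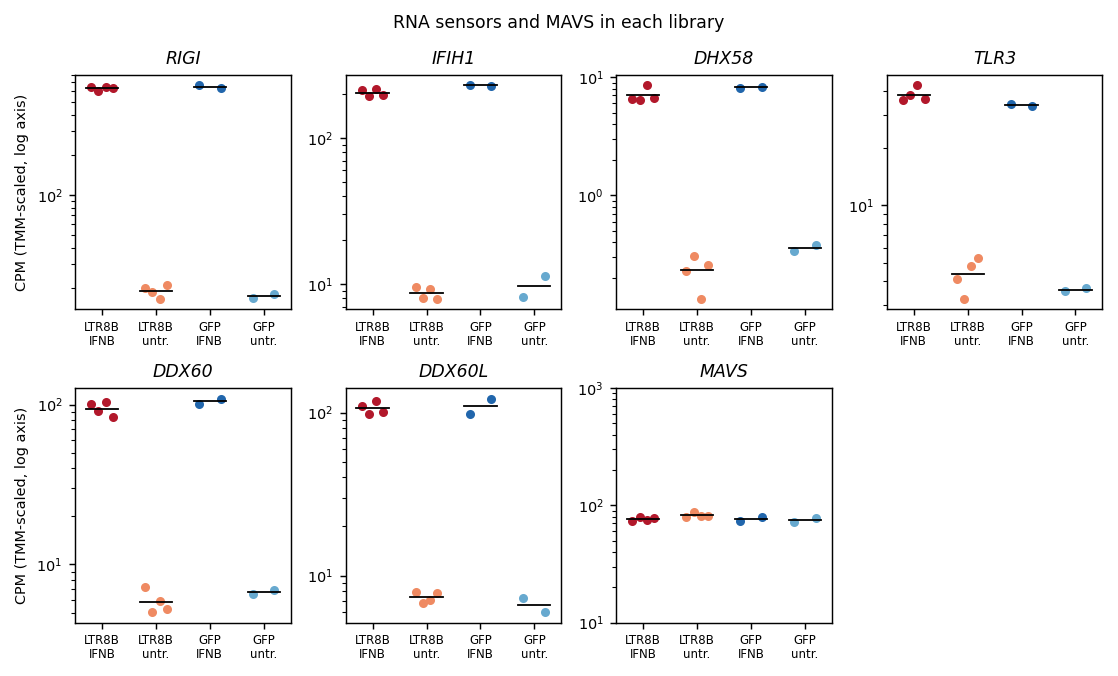
TMM-scaled CPM of each gene in the 12 libraries, on log axes whose range differs between genes; each point is 1 library and each line a group mean. For RIGI, IFIH1, DHX58, TLR3, DDX60 and DDX60L the IFNB libraries of both guides lie above all untreated libraries, while MAVS is at 72.1 to 88.1 CPM throughout.

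**Figure D2:**
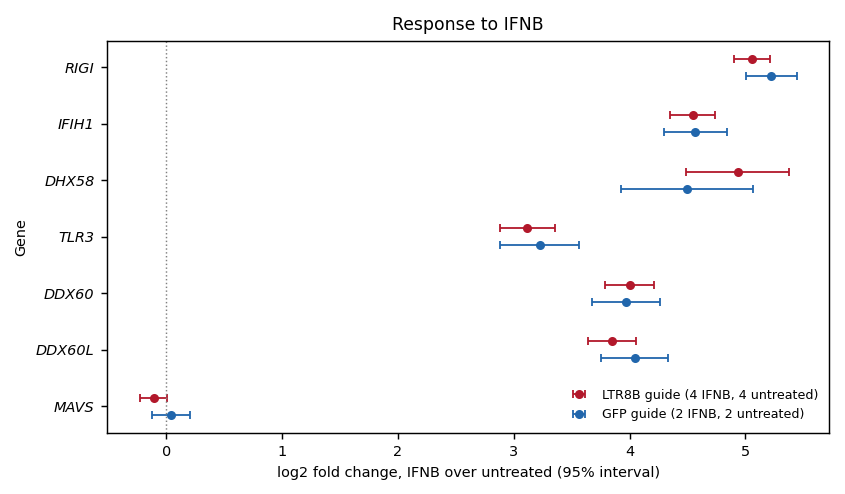
Log2 fold change of IFNB over untreated for each gene, with its 95% interval computed from the edgeR test, in LTR8B cells and GFP cells. RIGI has the largest value in both lines (5.06 and 5.22), TLR3 the smallest of the 6 responding genes (3.12 and 3.22), and the 2 intervals of MAVS include 0.

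Over both lines together the 6 responding genes were higher in all 6 IFNB libraries than in all 6 untreated libraries. The groups did not overlap within either line, a separation that 6.16% of all tested genes showed in the same direction in LTR8B cells and 22.6% in GFP cells. An exact two-sided permutation test of the treatment labels within each guide gave p = 0.00476 for each of the 6, the smallest value its arrangements can give, and p = 0.410 for MAVS. That test does not keep same-numbered libraries together.

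The promoter stretches of the genes were compared next, since interferon-stimulated genes are commonly bound at an interferon-stimulated response element (ISRE) by the factor complex ISGF3. Sequences are from RefSeq on GRCh38.p14, on the strand of the gene, from 160 bases before the RefSeq start to 50 bases after it; 6 of the 7 genes matched, all but DHX58. The ISRE was searched as GAAA, any 2 bases and GAAA on both strands in windows from 250 bases before to 50 after the start. Capitals mark each match, which begins and ends with TTTC where it lies on the other strand. The stretches are those of RIGI (chr9:32526147-32526356, minus strand), IFIH1 (chr2:162318635-162318844, minus), MAVS (chr20:3846674-3846883, plus), TLR3 (chr4:186068996-186069205, plus), DDX60 (chr4:168318703-168318912, minus) and DDX60L (chr4:168480443-168480652, minus). Each of these RefSeq starts lies inside the GENCODE span of its gene, furthest for DDX60L. Some of the bases before each start, and all of those for DDX60L, are therefore within that span.
RIGI: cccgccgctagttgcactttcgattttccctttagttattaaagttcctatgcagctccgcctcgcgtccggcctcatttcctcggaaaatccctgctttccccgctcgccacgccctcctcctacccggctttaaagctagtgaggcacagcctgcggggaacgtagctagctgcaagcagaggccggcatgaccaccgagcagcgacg
IFIH1: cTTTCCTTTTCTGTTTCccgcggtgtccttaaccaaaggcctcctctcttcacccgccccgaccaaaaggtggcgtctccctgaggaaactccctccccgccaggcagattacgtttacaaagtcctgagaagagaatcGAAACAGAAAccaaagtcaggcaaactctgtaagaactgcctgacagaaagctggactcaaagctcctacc
MAVS: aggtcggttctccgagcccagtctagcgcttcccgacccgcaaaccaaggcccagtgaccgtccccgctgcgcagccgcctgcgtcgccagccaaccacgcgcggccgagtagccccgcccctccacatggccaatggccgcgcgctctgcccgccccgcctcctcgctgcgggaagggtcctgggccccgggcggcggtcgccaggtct
TLR3: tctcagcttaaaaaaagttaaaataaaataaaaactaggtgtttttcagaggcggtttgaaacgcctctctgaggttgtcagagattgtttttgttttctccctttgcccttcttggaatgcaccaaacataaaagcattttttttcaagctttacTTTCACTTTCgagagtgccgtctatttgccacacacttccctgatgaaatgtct
DDX60: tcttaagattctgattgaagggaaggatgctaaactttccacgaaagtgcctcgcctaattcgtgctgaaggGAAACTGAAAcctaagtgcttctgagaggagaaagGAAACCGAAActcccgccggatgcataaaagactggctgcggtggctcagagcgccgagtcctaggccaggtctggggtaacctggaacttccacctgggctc
DDX60L: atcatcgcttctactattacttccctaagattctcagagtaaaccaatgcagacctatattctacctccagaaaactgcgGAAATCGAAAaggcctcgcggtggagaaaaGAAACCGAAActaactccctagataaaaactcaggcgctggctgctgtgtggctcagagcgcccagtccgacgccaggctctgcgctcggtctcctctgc

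The windows of 4 of the 6 genes held a match: IFIH1, TLR3, DDX60 and DDX60L. Of all 35116 RefSeq windows, 3.57% did. DDX60 and DDX60L each had 2 matches on the gene's own strand, beginning 88 and 53 bases before the start in DDX60 and 80 and 50 bases before it in DDX60L. IFIH1 had 1 match on its own strand 21 bases before the start and 2 overlapping ones on the other strand, shown as 1 run of capitals, and TLR3 had 1 match across its start on the other strand. The windows of RIGI, which had the largest response, and of MAVS, which had none called, held no match to these letters. For both genes part of the window before the RefSeq start lay inside the GENCODE span.

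A second motif, the gamma-activated site searched as TTC, any 3 bases and GAA, was found in the windows of TLR3 (2 matches) and DDX60 (1 match), and in 7.66% of all windows. None of these matches overlapped an ISRE match. Among tested genes with a window, the ISRE was present for 4.10% of 11415 genes, for 25.9% of the 347 that rose with IFNB in both lines, and for 62.5% of the 48 that rose at least 8-fold in both. These shares describe the letters in the windows and were not tested.

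Levels of different genes were compared per length, as CPM per kb of the main transcript. That is the longest protein-coding transcript marked as principal in the annotation, whichever transcripts the cells used. In LTR8B cells with IFNB the order was RIGI at 145, IFIH1 at 57.0, DDX60L at 15.7, DDX60 at 15.5, MAVS at 6.52, TLR3 at 6.34 and DHX58 at 2.68 CPM per kb. In untreated LTR8B cells it was MAVS at 7.04, RIGI at 4.38, IFIH1 at 2.43, DDX60L at 1.09, DDX60 at 0.965, TLR3 at 0.725 and DHX58 at 0.0889 CPM per kb. By main-transcript length MAVS, first among the 7 in untreated cells, was thus in the fifth place after IFNB while its own level had no called change.

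GFP cells gave 149 for RIGI, 63.7 for IFIH1, 17.4 for DDX60, 16.2 for DDX60L, 6.53 for MAVS, 5.61 for TLR3 and 3.13 for DHX58 CPM per kb with IFNB, against 4.00, 2.71, 1.11, 0.976, 6.37, 0.601 and 0.137 CPM per kb for the same genes untreated. DDX60 and DDX60L overlapped between libraries in 3 groups and have no order beyond their spread there, while in untreated GFP cells both libraries had DDX60 (1.08 and 1.13) above DDX60L (0.882 and 1.07). DDX60 also overlapped TLR3 in untreated LTR8B cells. MAVS and TLR3 overlapped in LTR8B cells with IFNB but not in GFP cells with IFNB. With the length of all exons of the gene in place of the main transcript, DDX60 was above DDX60L in all 4 groups, TLR3 was also above DDX60L in untreated LTR8B cells, and the other places were unchanged.

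Set against its adaptor within each library, RIGI was at 20.3 to 23.6 times the per-kb level of MAVS in LTR8B cells with IFNB, against 0.549 to 0.694 times in untreated LTR8B cells. In GFP cells the ratio was 24.2 and 21.4 with IFNB, against 0.625 and 0.630 untreated. IFIH1 was at 7.92 to 9.49 times the level of MAVS in LTR8B cells with IFNB, against 0.297 to 0.398 times untreated, and at 10.1 and 9.40 times in GFP cells with IFNB, against 0.367 and 0.480 times untreated. By main-transcript length, the RNA of both sensors was below that of the adaptor in every untreated library and above it in every treated one.

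**Figure D3:**
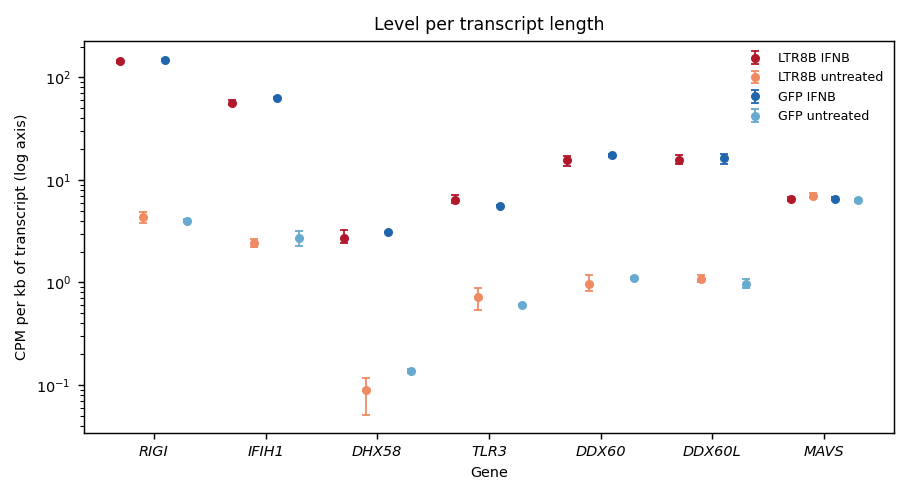
Mean CPM per kb of main transcript on a log axis for each gene and group, with bars from the lowest to the highest library. MAVS lies at 6.37 to 7.04 in all groups, above every sensor in untreated cells and below RIGI, IFIH1, DDX60 and DDX60L with IFNB.

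Ratios of counts were then taken within libraries to compare treatments; without a correction for length they do not compare the levels of 2 genes. IFIH1 had 0.307 to 0.334 counts for each RIGI count in LTR8B cells with IFNB, against 0.380 to 0.555 in untreated LTR8B cells, and 0.345 and 0.362 in GFP cells with IFNB, against 0.485 and 0.629 untreated. The ratio was lower in all treated libraries than in all untreated ones. DDX60L had 1.09, 1.08, 1.14 and 1.21 counts for each DDX60 count in LTR8B cells with IFNB, against 1.10, 1.35, 1.20 and 1.47 untreated, and 0.961 and 1.12 in GFP cells with IFNB, against 1.10 and 0.870 untreated. Here the treated and untreated libraries overlapped in both lines. The main transcripts of DDX60 and DDX60L share 84 stretches of 31 bases, which is 1.39% of those in DDX60 and 1.24% of those in DDX60L, so few reads could be exchanged between them. DDX60L also overlaps PALLD on the opposite strand over 40721 bases, none of them exonic in both genes.

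The guide comparison asks whether the level or the response of these genes differed in cells with low SP140. None of the 7 passed edgeR's threshold between LTR8B and GFP cells, neither untreated nor with IFNB nor averaged over treatments, and DESeq2 and limma-voom also called 0. Over all tested genes edgeR called 0.36% untreated, 0.354% with IFNB and 2.14% averaged. At an unadjusted p under 0.05 there was 1 of 7 untreated (MAVS), 0 with IFNB and 1 averaged (TLR3), beside 11.2%, 9.48% and 15.8% of all tested genes. The closest values are given here with their intervals, because a missed threshold does not show equal levels.

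MAVS in untreated cells averaged 82.5 ± 3.95 CPM in LTR8B cells and 74.6 ± 3.47 CPM in GFP cells (SD, n = 4 and 2). The LTR8B libraries were all above both GFP libraries, as were those of 10.2% of all tested genes. The log2 difference was 0.15 (SE 0.07, unadjusted p = 0.0482, edgeR adjusted p = 0.440), and with IFNB it was -0.00 (95% interval -0.15 to 0.14).

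TLR3 averaged 38.1 ± 3.22 CPM in LTR8B cells and 33.8 ± 0.544 CPM in GFP cells with IFNB (SD, n = 4 and 2), without overlap, as for 9.6% of all tested genes. Untreated, it averaged 4.36 ± 0.889 CPM in LTR8B cells and 3.61 ± 0.0861 CPM in GFP cells, with overlap. The averaged log2 difference was 0.23 (95% interval 0.02 to 0.44, unadjusted p = 0.0371, edgeR adjusted p = 0.281).

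DHX58 in untreated cells was at 0.134 to 0.309 CPM in LTR8B libraries and 0.340 and 0.377 CPM in GFP libraries, which did not overlap, as for 9.44% of all tested genes. The log2 difference there was -0.67 with an interval of -1.61 to 0.27 (edgeR adjusted p = 0.595), which rests on 4 to 9 counts per library. With IFNB it was -0.23 (edgeR adjusted p = 0.715), and LTR8B replicate 3 lay above both GFP libraries. IFIH1 with IFNB averaged 205 ± 12.4 CPM in LTR8B cells and 229 ± 1.20 CPM in GFP cells (SD, n = 4 and 2), without overlap, as for 9.43% of all tested genes, with a log2 difference of -0.16 (SE 0.09, edgeR adjusted p = 0.618).

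RIGI, DDX60 and DDX60L overlapped between guides in both treatments. Their log2 differences were 0.13, -0.19 and 0.15 in untreated cells and -0.03, -0.16 and -0.05 with IFNB, with the widest of these intervals running from -0.49 to 0.10 for DDX60 untreated. An exact two-sided permutation test of guide labels within each treatment, on log2(CPM + 0.5), gave p = 0.0489 for DHX58 and 0.0933 to 0.533 for the other 6, unadjusted for the 7 genes tested; the smallest p it can give is 0.00444. For DHX58 the p was 0.0533 to 0.08 without any 1 of 8 libraries: the 4 GFP libraries, LTR8B untreated replicate 1 and LTR8B IFNB replicates 1, 2 and 4. In the same exact test the p was 0.0133 for IFIH1 without GFP untreated replicate 1, 0.0267 for TLR3 without LTR8B untreated replicate 2 and 0.02 for DDX60 without LTR8B untreated replicate 1.

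The IFNB responses of the 2 lines were compared directly through the interaction of guide and IFNB. None of the 7 passed (edgeR adjusted p = 0.996 for each, 0 at an unadjusted p under 0.05, 0 by DESeq2 and by limma-voom), and no gene of the whole table did, 0% of those tested. Over all genes tested, 489 (2.98%) had an unadjusted p under 0.05 in this comparison, and DESeq2 and limma-voom also called 0. The log2 difference between the responses was -0.16 for RIGI (95% interval -0.40 to 0.08) and -0.02 for IFIH1 (-0.35 to 0.30). For DHX58 it was 0.44 with an interval of -0.57 to 1.45, whose upper end lies above a 2-fold difference.

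**Figure D4:**
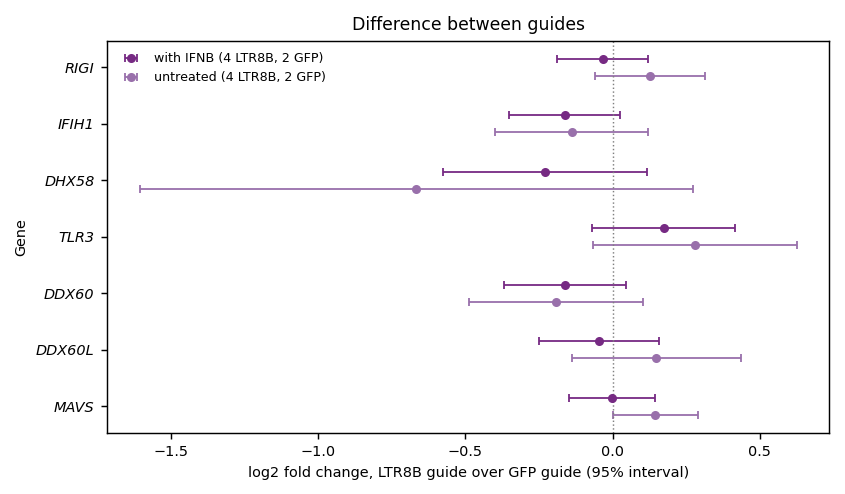
Log2 fold change of the LTR8B guide over the GFP guide for each gene with IFNB and untreated, with 95% intervals computed from the edgeR test. Apart from MAVS untreated, whose interval begins at 0.00, all intervals include 0, and that of DHX58 untreated is the widest (-1.61 to 0.27).

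Other genes of the RNA-sensing route were counted in lists by role, and each count below stands beside the 4.01% of all tested genes called higher with IFNB in LTR8B cells and the 3.06% in GFP cells. Of 29 tested genes for proteins that act on RIG-I, MDA5 or MAVS, 8 rose with IFNB in LTR8B cells and 7 in GFP cells, and none fell. ZC3HAV1, the zinc finger antiviral protein, averaged 375 CPM with IFNB and 87.0 CPM untreated in LTR8B cells (log2 2.11, SE 0.05, edgeR adjusted p = 3.40e-15; 2.23 in GFP cells). IFI35 rose by 2.51 and 2.57 on the log2 scale in LTR8B and GFP cells. TRIM25, a ubiquitin ligase for RIG-I, rose by 1.44 and 1.63, and the protease CASP10 by 1.04 and 0.89. The list's median was 0.04 in LTR8B cells and 0.01 in GFP cells, near that of all genes. CASP8 rose as well, by 0.64 in LTR8B cells and 0.57 in GFP cells on the log2 scale. In LTR8B cells the calls of CYLD, MARCHF5 and USP15 were lost without 3, 9 and 10 of the 12 libraries left out in turn, and in GFP cells those of CYLD and MARCHF5 ended when replicate 2 of the IFNB-treated GFP cells, or replicate 1 or 2 of the untreated ones, was dropped.

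The genes for kinases and factors that carry the signal from MAVS or TRIF to interferon genes were mostly not called. Of 20 tested, 2 rose in both lines: AZI2, an adaptor of the kinase TBK1, by 0.72 in LTR8B cells and 0.95 in GFP cells, and the kinase RIPK1 by 0.48 and 0.49 (log2, edgeR adjusted p = 2.51e-07, 9.17e-07, 2.86e-05 and 0.00130). IKBKE had log2 differences of 0.32 and 0.18 and TANK of 0.13 and 0.21, none past the threshold by edgeR; DESeq2 called IKBKE in LTR8B cells (adjusted p = 0.0292). Of the 12 genes of the TLR3 route, UNC93B1, which escorts endosomal Toll-like receptors, rose in LTR8B cells by 0.46 (SE 0.10, edgeR adjusted p = 0.0126). That call was lost, at an adjusted p of up to 0.0586, without LTR8B untreated replicate 1, LTR8B IFNB replicate 2 or LTR8B IFNB replicate 3, and UNC93B1 was at 0.43 in GFP cells (edgeR adjusted p = 0.168). TICAM1, which encodes TRIF, had log2 differences of 0.30 and 0.20 that did not pass by edgeR. DESeq2 called TICAM1 in LTR8B cells (adjusted p = 0.0455) and PIK3CA in GFP cells (adjusted p = 0.0271, against 0.0635 by edgeR).

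Of the genes that are transcribed once RNA has been sensed, the interferons had almost no counts. IFNB1 had 0 counts in all IFNB libraries, among 73539825 counts in LTR8B cells and 41630954 in GFP cells, and 1 count in all untreated libraries. IFNA1, IFNL1 and IFNL3 had 0 counts in all 12 libraries, and IFNL2 had 1. TNF, also not tested, had 15 counts in LTR8B cells with IFNB and 3 untreated, and 5 in GFP cells with IFNB and 5 untreated. The chemokine CXCL10 had 1061 counts in LTR8B cells with IFNB and 3 in untreated LTR8B cells, and 619 in GFP cells with IFNB and 5 in untreated GFP cells (edgeR adjusted p = 3.33e-13 and 9.19e-11). Of the 4 tested genes of this list 3 rose in LTR8B cells, CXCL10, CCL5 (log2 1.40, SE 0.23) and IL6 (0.72, SE 0.16). In GFP cells, with fewer libraries, 1 was called, CXCL10. CCL5 and IL6 had log2 differences of 0.99 and 0.63 there, in the same direction (edgeR adjusted p = 0.0883 and 0.206). CXCL8 had log2 differences of -0.62 in LTR8B cells and -0.71 in GFP cells (edgeR adjusted p = 0.0933 and 0.304). In LTR8B cells it was past the threshold by DESeq2 (adjusted p = 0.0461) but not by limma-voom (0.120).

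Among 13 other tested genes for RNA-binding sensors and effectors, 12 rose in both lines, with a median log2 fold change of 4.30 in LTR8B cells and 4.31 in GFP cells. IFIT2, which binds viral RNA, averaged 2552 CPM with IFNB and 9.42 CPM untreated in LTR8B cells (log2 8.08, SE 0.08, edgeR adjusted p = 1.50e-20). IFIT3 rose by 6.26 and the oligoadenylate synthetases OAS2 and OAS3 by 7.37 and 3.41 in LTR8B cells. Of 48 other tested genes named DDX or DHX, the wider helicase family of RIGI, DHX58, DDX60 and DDX60L, 2 rose in both lines, a share near that of all tested genes (4.01% and 3.06%). These were DDX52 (0.37 in LTR8B cells and 0.41 in GFP cells) and DDX3X (0.31 and 0.39), and in GFP cells both calls were lost without any 1 of the GFP libraries. The family's median was 0.00 in LTR8B cells and -0.06 in GFP cells.

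None of the 126 tested genes in these 6 lists passed edgeR's threshold in a guide comparison. At an unadjusted p under 0.05 there were 14 untreated, 10 with IFNB, 24 averaged and 4 in the interaction, beside 11.2%, 9.48%, 15.8% and 2.98% of all tested genes. DESeq2 called 2 of them in the average, IRF3 and UNC93B1, and limma-voom 0. Outside these lists, averaged over treatments, SP110, the neighbour of SP140, was lower in LTR8B cells with a log2 difference of -0.42 (edgeR adjusted p = 4.94e-04). In the same average the markers COL1A1, SPARC and CSF1R were lower with -0.64, -0.22 and -0.57 (edgeR adjusted p = 0.0492, 0.0289 and 0.00486). The part of these genes in the values above was not tested. By treatment, edgeR called SP110 untreated (means of 17.0 CPM in LTR8B cells and 26.2 CPM in GFP cells) but not with IFNB (174 and 202 CPM). The call of SPARC was lost without replicate 2 of either GFP group, LTR8B untreated replicate 4 or LTR8B IFNB replicate 2 or 4 (edgeR adjusted p of up to 0.263). That of CSF1R was lost without GFP untreated replicate 2 (0.0682). The call of COL1A1 was lost without any 1 of the 12 libraries and by DESeq2 and limma-voom (adjusted p = 0.0606 and 0.0576), and DESeq2 called PDGFRB lower (adjusted p = 0.0468, against 0.114 by edgeR).

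**Figure D5:**
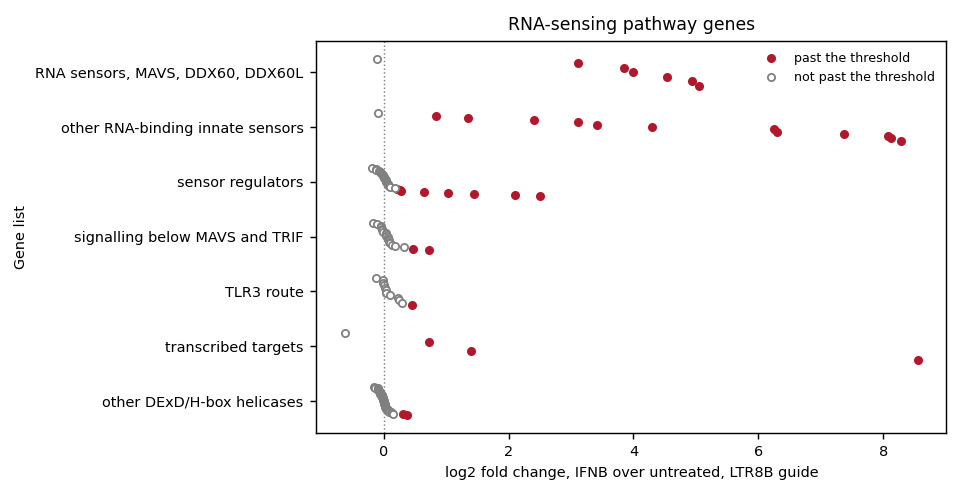
Log2 fold change of IFNB over untreated in LTR8B cells for every tested gene of each list; filled points passed an edgeR adjusted p of 0.05 and open points did not. The other RNA-binding sensors and 6 of the 7 genes described here are spread over large positive values, while most regulators, signalling genes and helicases sit near 0; the point at 8.55 is CXCL10, whose fold rests on 3 untreated counts.

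The genes most alike in profile were found by the root mean square difference of centred log2(CPM + 0.5) over the 12 libraries, which largely reflects the size of the IFNB response. RIGI was nearest to IFI6 (0.169), IFI44L (0.185) and SAMD9 (0.201), and IFIH1 to TMEM140 (0.197), OAS1 (0.199) and SAMD9 (0.206). DHX58 was nearest to OAS3 (0.150), SAMHD1 (0.168) and PARP14 (0.182), and TLR3 to GBP3 (0.127), DTX3L (0.164) and IFIT5 (0.172). DDX60 was nearest to APOL6 (0.120), PARP9 (0.141) and BST2 (0.155), and DDX60L to CXCL11 (0.145), PARP9 (0.152) and TRANK1 (0.176). DDX60 and DDX60L were also the closest pair among the 7, at 0.176. MAVS, with no called change, was nearest to MT-CO2 (0.0452), ZNF440 (0.0454) and SFSWAP (0.0479). Under Pearson correlation over the same libraries the nearest genes were mostly other names.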

How the data were processed

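Whole-number counts per gene, deposited by the authors, were analysed. Salmon 0.13.1, DESeq2 1.38.3 and hg38 are named in the submitters' processing notes without their roles. The authors' deposited second table, a normalized signal, equals the counts divided by 1 factor per library and was not used further. Whether strand was used in counting is not given in the sources used here.

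Counts were fitted with edgeR 4.0.16 in R 4.3.3 over all 12 libraries, 1 mean per group, TMM scaling, filterByExpr (minimum count 10, minimum total 15; 16393 genes kept), robust quasi-likelihood and Benjamini-Hochberg adjustment over all tested genes. The fit was tested on simulated data. DESeq2 1.42.0, limma 3.58.1 (voom), RLE scaling, no filter, fits of only the groups compared, a replicate block and leaving out each library were alternatives. Intervals are at 95%, cover the spread between libraries, and SE is that of the log2 fold change. For edgeR the SE was computed from the log2 fold change, p and degrees of freedom of its test, and the interval from that SE. For a gene at 0 the limit is 3 counts per library, 0.100 to 0.244 CPM, for counting error only.

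Members, lists and tests were chosen with earlier results of these data known. All 7 members were named; from each list up to 4 genes, ranked by adjusted p in the IFNB response of LTR8B cells; and for each member the 3 genes most alike. IFNB1, IFNL2, IFNA1, IFNL1, IFNL3 and TNF were added after their values were seen, as genes of their list that were not tested. Gene positions and transcript lengths are from GENCODE release 29.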

Additional observations from a re-analysis of the deposited data

Results flagged for a closer look

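DHX58 in LTR8B IFNB replicate 3 was at 8.54 CPM, far from the other 3 treated LTR8B libraries at 6.53, 6.40 and 6.63 CPM; its gap to the nearest of them was 0.894 of the group's range, above Dixon's critical value for 4 libraries at 95%. This was 1 of 16 groups of 4 libraries examined, and chance gives about 1 in 20. The library had the lowest total count, 12404270, and 105 DHX58 counts; the part of its depth in this value was not tested.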

How the results depend on the processing

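The same number of the 7 genes was called in each comparison, 6, 6, 0, 0, 0 and 0, under every alternative run: RLE scaling, DESeq2, limma-voom, no low-count filter, only the groups compared (not run for the average and the interaction), a replicate block and each library left out. Without 1 library in turn, the guide differences tested by permutation ranged from -0.27 to -0.036 for IFIH1, from -0.27 to -0.19 for DHX58, from 0.15 to 0.26 for TLR3, from -0.23 to -0.15 for DDX60 and from -0.023 to 0.14 for DDX60L (log2). MAVS with IFNB, at -0.00 between guides, had the other sign under RLE (0.00239), DESeq2 (0.00282), no filter (0.0125) and the replicate block (0.00500). Leaving out single libraries also turned the sign of some uncalled values: the IFNB response of MAVS in GFP cells then ranged from -0.011 to 0.086; the guide difference of IFIH1 untreated from -0.37 to 0.11; with IFNB that of RIGI from -0.074 to 0.0069, MAVS from -0.050 to 0.047 and DDX60L from -0.20 to 0.12; averaged, that of DDX60L from -0.024 to 0.14; and the interaction of IFIH1 from -0.27 to 0.21 and of DDX60 from -0.028 to 0.14. A gene level per kb by exon length, added after seeing the data, moved 18 of 28 levels by at least 1 SD between libraries. Across treatments within a guide, same-numbered LTR8B libraries deviated together with r = 0.0624 to 0.237 and the GFP ones with 0.126. LTR8B untreated replicate 3 was closest to LTR8B IFNB replicate 4 (0.0678, against 0.0624), and every other LTR8B library was closest to its own number. The GFP correlations are 1 value with either sign, because 2 libraries deviate from their mean by equal and opposite amounts. The labels number the replicates without naming pairs, and the main fit did not take them as pairs. With the replicate block 1040, 747, 53, 56, 181 and 4 genes were called over the table, against 737, 524, 59, 58, 351 and 0 in the main fit. The block was guide with number for the IFNB responses and the interaction. For the level differences between guides it was the number alone, shared by both guides. Same-numbered libraries of the 2 guides did not deviate together (r = -0.142 to -0.0496). Counts of all called genes differed most between guides: 59 untreated became 177 by DESeq2, 325 with no filter, 34 or 23 without GFP untreated replicate 1 or 2 and 93 without LTR8B untreated replicate 2; 58 with IFNB became 120, 260 (45.4% higher, against 65.5%), 20 without GFP IFNB replicate 2 and 36 when LTR8B IFNB replicate 2 was left out; 351 averaged became 590, 775 and 100 to 195 without a GFP library; the interaction, 0, became 13 with no filter and 1 without GFP untreated replicate 1. The cause was not tested. Depth limits DHX58 most, with 4 to 9 counts per untreated library and a guide interval of -1.61 to 0.27 there.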

Other observations

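IRF7, the interferon regulatory factor that amplifies signalling below MAVS and is itself interferon-stimulated in many human cells, had 0 counts in all 6 IFNB libraries and 1 count in the untreated ones, so it was not tested; IRF3, its constitutive relative, averaged 20.6 CPM in LTR8B cells with IFNB and 19.5 CPM in untreated LTR8B cells. The value of IRF7 was picked after it was seen, and how its transcripts were handled in the counting is not given in the sources used here.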
